A study of Mus musculus with 6 samples.

Results

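NRF2 is the transcription factor that turns on antioxidant and detoxification genes, and the 10 genes described here are *Nfe2l2*, which encodes it, its inhibitor *Keap1*, and 8 of its known targets. These were *Nqo1*, *Gclc*, *Gclm*, *Srxn1*, *Txnrd1*, *Hmox1*, *Gsta3* and *Gstm1*, taken by name as a pathway out of 54115 genes in the liver RNA-seq of aged mice. Earlier results of these data were known when the 10 genes were chosen. In these livers 1 of the 10, *Nqo1*, was set apart by genotype, at 15.2 ± 1.89 CPM (read count scaled to library size; mean ± SD, n = 3) in WT mice and 5.66 ± 2.06 CPM in *Sirt7* KO mice. The other 9 overlapped between genotypes in CPM. Over all tested genes, 16.8% had no such overlap (8.09% lower in *Sirt7* KO mice). None of the 10 passed an adjusted p-value of 0.05 in edgeR. DESeq2 gave *Nqo1* an adjusted p of 0.0017, and 0.006 with an offset for transcript length. *Gclc* narrowly did not overlap in TPM, which is scaled to transcript length and to the total per mouse.

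Livers came from 3 WT and 3 *Sirt7* KO male mice, all 24 months old and all fasted for 16 h. *Sirt7* encodes a nuclear NAD-dependent deacylase of the sirtuin family. The knockout was present in the whole body and not only in hepatocytes, had been backcrossed to C57BL/6J, and was compared with WT littermates from heterozygous parents. Whole liver was used, so fewer cells of a type and less RNA per cell cannot be told apart in any value below. Each mouse gave 1 library, and the 3 mice of a genotype are separate animals. Only RNA was measured, so the amount and location of the NRF2 protein were not.

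In unstressed cells KEAP1 binds NRF2 and hands it to a cullin 3 ubiquitin ligase, which marks it for breakdown. Oxidants and electrophiles modify KEAP1, NRF2 then builds up in the nucleus, pairs with a small MAF protein and binds the antioxidant response element of its target genes. In liver these targets make glutathione, join it to reactive compounds, reduce quinones, recycle thioredoxin and break down heme, and the liver is the main site of such detoxification in the body.

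The libraries held 9994860 to 13424776 reads each. *Sirt7* itself was at 55.2, 45.5 and 47.3 CPM in WT mice and 28.6, 41.7 and 40.8 CPM in *Sirt7* KO mice, with no overlap (log2 fold change -0.41, SE 0.18, edgeR adjusted p = 0.42). Its full-length transcript was assigned 68.6 ± 6.52% of its reads in WT mice and 30.8 ± 11.2% in *Sirt7* KO mice. The shorter *Sirt7-207* was assigned 5.6 ± 5.18% and 34.1 ± 9.95%, and *Sirt7-202* 0.449 ± 0.522% and 17.3 ± 4.28%. Reads that fit several transcripts are split between them by estimate, so these shares do not show that full-length RNA was present in *Sirt7* KO mice. With an offset for average transcript length the *Sirt7* value turned to 0.80 in edgeR, so the summed reads do not measure intact *Sirt7* RNA. The summed level of 8 hepatocyte markers was 47936 to 53945 CPM in WT mice and 50314 to 64653 CPM in *Sirt7* KO mice, and none of them was at 0. WT liver 1 stood apart in 14 male-biased liver genes, which summed to 3712 CPM there against 23553 and 28616 CPM in the other WT livers and 36958 to 49123 CPM in *Sirt7* KO mice. Of these 14 genes 10 were higher in *Sirt7* KO mice at an unadjusted p under 0.05. Conversely, 14 female-biased genes summed to 210 to 287 CPM in WT mice and 20.8 to 56.2 CPM in *Sirt7* KO mice. Only 4 of these 14 were high enough to be tested, of which 3 were below 0 and 1 above 0 in log2 fold change. An unadjusted p under 0.05 in edgeR was reached by 2 of the 4, both lower in *Sirt7* KO mice. The part of these genes in the results below was not tested, and the values of the 10 genes without WT liver 1 are given with them. Over all genes, edgeR called 1 of 12524 at an adjusted p under 0.05 with a fold change over 1.5 (0.00798%), and the typical biological variation between mice of a genotype was 26.4%.

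NRF2 reaches its targets through the antioxidant response element, whose core letters TGACNNNGC were looked for on both strands of the RefSeq promoter windows (GRCm38.p6, 250 bases before to 50 after each start). The core was found in 4071 of 32851 windows (12.4%), and in 10.2% of them before the start. Of the 10 genes, 8 had an entry, *Gclc* and *Hmox1* being the other two. The 250 bases before the start of *Nqo1*, the gene set apart by genotype, and of the 4 genes with the core before a start are printed 5′ to 3′ so that their letters can be compared, with the core in capitals.
*Nqo1* (chr8:107403206-107403455, minus strand): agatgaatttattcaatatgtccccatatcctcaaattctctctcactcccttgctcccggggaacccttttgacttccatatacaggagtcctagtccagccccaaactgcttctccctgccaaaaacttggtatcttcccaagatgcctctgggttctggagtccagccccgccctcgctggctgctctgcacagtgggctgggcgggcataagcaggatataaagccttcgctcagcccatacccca
*Nfe2l2* (chr2:75704664-75704913, minus strand): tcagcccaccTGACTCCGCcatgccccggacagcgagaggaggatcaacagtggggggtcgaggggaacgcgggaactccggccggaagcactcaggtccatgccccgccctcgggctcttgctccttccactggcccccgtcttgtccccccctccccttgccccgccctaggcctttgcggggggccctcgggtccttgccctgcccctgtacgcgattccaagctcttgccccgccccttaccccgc
*Gclm* (chr3:122245307-122245556, plus strand): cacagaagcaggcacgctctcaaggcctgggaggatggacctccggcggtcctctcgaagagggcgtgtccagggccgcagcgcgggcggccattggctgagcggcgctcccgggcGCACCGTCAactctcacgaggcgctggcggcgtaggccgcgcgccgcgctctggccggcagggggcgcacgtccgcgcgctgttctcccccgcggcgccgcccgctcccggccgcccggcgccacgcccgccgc
*Txnrd1* (chr10:82858956-82859205, plus strand): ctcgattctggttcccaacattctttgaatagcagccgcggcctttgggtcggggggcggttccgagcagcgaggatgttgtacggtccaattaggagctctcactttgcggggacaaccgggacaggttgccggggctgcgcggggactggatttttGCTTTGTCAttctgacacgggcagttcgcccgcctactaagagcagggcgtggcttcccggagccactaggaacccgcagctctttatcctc
*Gsta3* (chr1:21240335-21240584, plus strand): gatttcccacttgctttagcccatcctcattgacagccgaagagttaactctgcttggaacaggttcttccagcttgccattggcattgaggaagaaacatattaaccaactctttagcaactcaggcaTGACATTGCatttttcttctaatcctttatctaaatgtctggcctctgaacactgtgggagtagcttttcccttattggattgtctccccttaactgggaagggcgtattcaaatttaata
The core began 240 bases before the start in *Nfe2l2* and 121 bases before it in *Gsta3*, on the strand of the gene. It lay on the opposite strand of *Gclm*, 134 bases before the start, and of the second of 3 *Txnrd1* starts, 92 bases before it. In *Srxn1* it lay 29 bases after the start, and in *Nqo1*, *Keap1* and *Gstm1* these letters were not in the window. Such a match is a description of letters and not a binding site. The response element of a gene can lie outside the window, and elements that differ from these exact letters were not counted.

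On a scale that corrects for length (TPM, mean of the 6 livers), the 10 genes spanned a wide range of levels. *Gstm1* led at 2788 TPM, followed by *Gsta3* at 804 TPM, both glutathione S-transferases of the cytosol. *Gclm* and *Gclc*, the modifier and the catalytic subunit of the enzyme that starts glutathione synthesis, stood at 248 and 63.3 TPM. *Txnrd1* (25.3 TPM), *Keap1* (21 TPM), *Nfe2l2* (17.7 TPM) and *Srxn1* (13.7 TPM) lay close together, and *Hmox1* (7.51 TPM) and *Nqo1* (6.67 TPM) were the lowest. From *Gstm1* down to *Txnrd1* the ranges over the livers did not overlap. Below *Txnrd1* each neighbouring pair overlapped, and *Keap1* exceeded *Nfe2l2* in 4 of 6 livers and *Hmox1* exceeded *Nqo1* in 3 of 6.

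**Figure D1:**
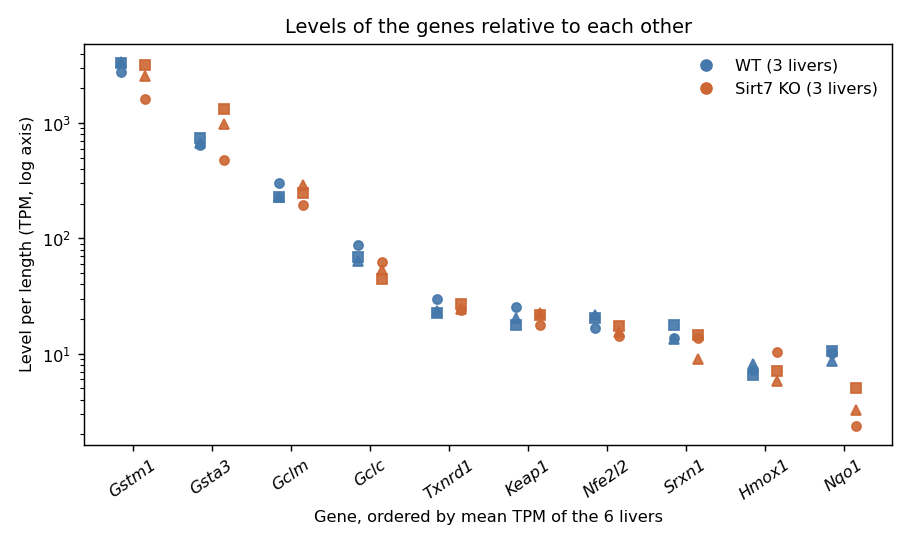
Level of each of the 10 genes per length (TPM, log axis) in each liver, with WT mice in blue, *Sirt7* KO mice in orange, and circle, square and triangle for livers 1, 2 and 3. Means fall from 2788 TPM for *Gstm1* to 6.67 TPM for *Nqo1*, and *Nqo1* is the gene in which the colours separate most.

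*Nqo1* encodes NAD(P)H quinone dehydrogenase 1, which reduces quinones in a single step and is widely used as a readout of NRF2. The gene (ENSMUSG00000003849.8) lies on chromosome 8 from 107388225 to 107403206 on the minus strand of GRCm38, and 1 transcript of it was quantified. WT mice had 173, 191 and 185 reads, or 14.6, 17.3 and 13.7 CPM, and *Sirt7* KO mice had 43, 75 and 53 reads, or 3.94, 7.95 and 5.11 CPM. Every WT liver lay above every *Sirt7* KO liver, and the highest *Sirt7* KO value was well below the lowest WT value. The log2 fold change was -1.43 (SE 0.28, 95% confidence interval -2.05 to -0.80), which is 0.371 of the WT level. The unadjusted p was 0.000585 (rank 54 of 12524 genes) and the adjusted p was 0.14 in edgeR, so the difference did not pass over all genes. DESeq2 gave -1.42 (SE 0.32) with an adjusted p of 0.0017, and -1.42 (SE 0.35) with an adjusted p of 0.006 with length offsets, and called *Nqo1* in both forms. Per length the levels were 9.78 ± 0.989 TPM in WT mice and 3.55 ± 1.37 TPM in *Sirt7* KO mice (exact permutation p = 0.1, two-sided, the smallest that 3 against 3 allows). Without WT liver 1 the log2 fold change was -1.46 (SE 0.32, edgeR adjusted p = 0.22), and leaving out each liver in turn gave -1.75 to -1.22.

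**Figure D2:**
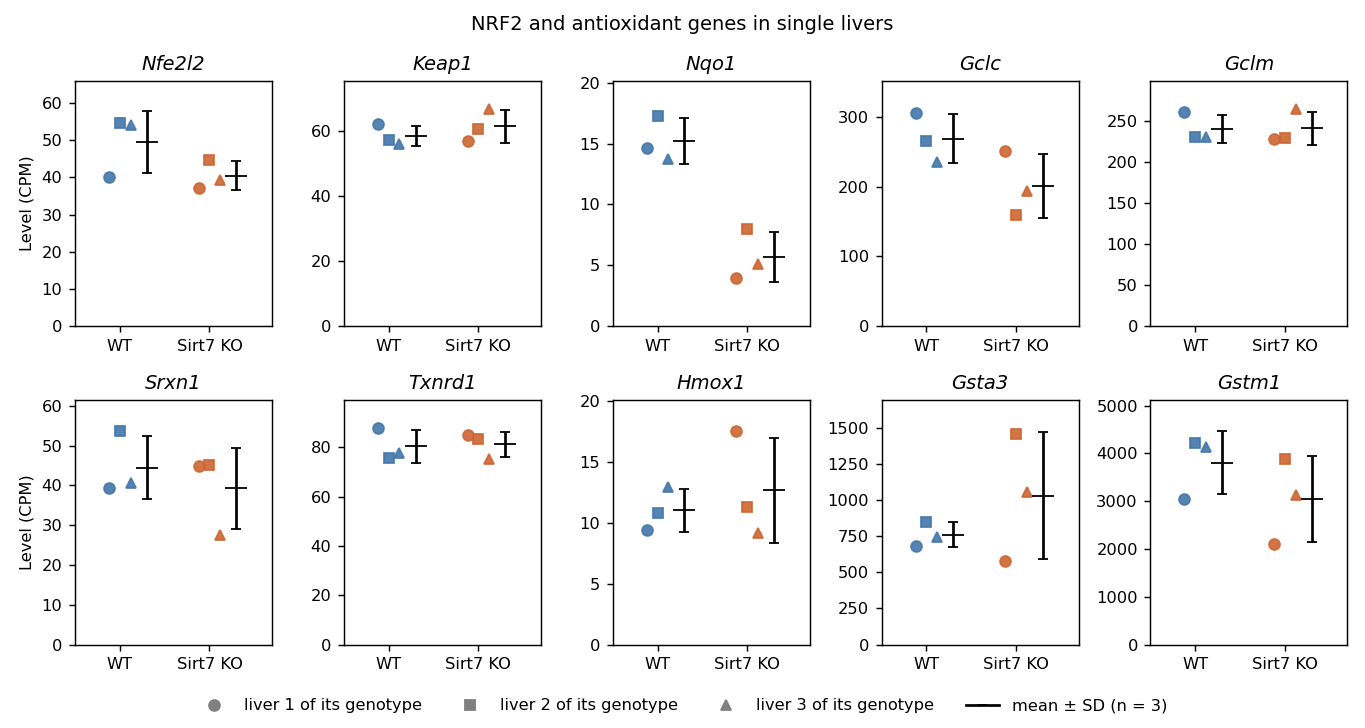
Level of each gene in each liver (CPM, axes from 0, each panel with its own scale), in WT mice (blue) and *Sirt7* KO mice (orange), with the mean ± SD (n = 3) beside the points. For *Nqo1* the 3 WT livers lie at 13.7 to 17.3 CPM and the 3 *Sirt7* KO livers at 3.94 to 7.95 CPM, and in the other 9 panels the genotypes overlap.

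Set against all genes, the 10 had no common direction. An unadjusted p under 0.05 was reached by 1 of the 10, where 11.3% of all tested genes reached it, and in the lower direction 4.78%. Likewise 1 of the 10 had genotypes that did not overlap in CPM, lower in *Sirt7* KO mice, against 16.8% of all genes (8.09% lower and 8.74% higher). The log2 fold changes were below 0 for 5 genes and above 0 for 5 (8 and 2 when scaled by total reads alone, which put the median of all genes at -0.11), against 50.7% of all genes below 0, and their median was -0.09, against -0.01 over all genes. DESeq2 called 1 of the 10 with length offsets and 1 without, against 1.81% and 2.11% of all genes (0.513% and 0.574% in the lower direction).

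**Figure D3:**
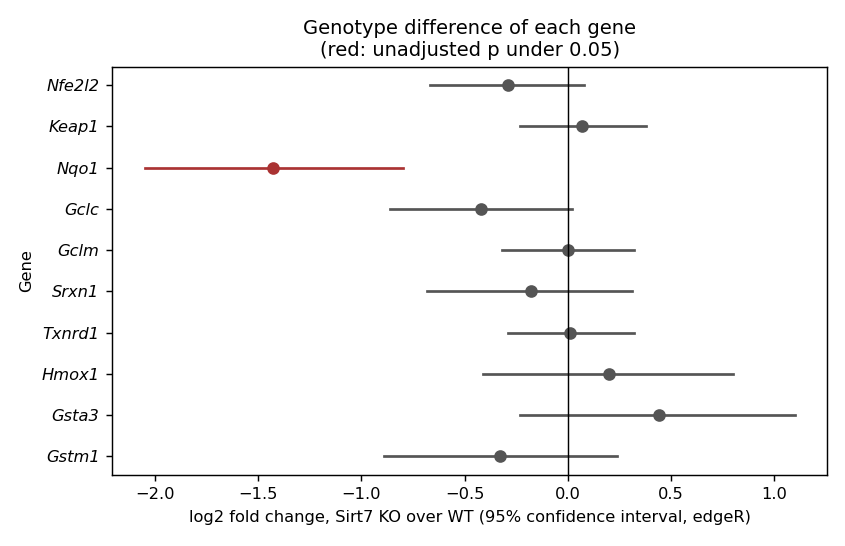
Log2 fold change of each gene, *Sirt7* KO over WT, from edgeR, with its 95% confidence interval. The interval of *Nqo1*, in red, runs from -2.05 to -0.80, and each of the other 9 intervals includes 0.

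The regulator and its inhibitor both overlapped between genotypes. *Nfe2l2* (ENSMUSG00000015839.6, chromosome 2, 75675513 to 75704641, minus strand) was at 40.0, 54.5 and 54.1 CPM in WT mice and at 37.2, 44.7 and 39.3 CPM in *Sirt7* KO mice. WT livers 2 and 3 were the highest, and WT liver 1 lay among the *Sirt7* KO livers. The log2 fold change was -0.29 (SE 0.17, 95% confidence interval -0.67 to 0.08, edgeR adjusted p = 0.56), and without WT liver 1 it was -0.43 (unadjusted p = 0.0248, edgeR adjusted p = 0.45). *Keap1* (ENSMUSG00000003308.15, chromosome 9, 21229730 to 21239361, minus strand) was at 62.1, 57.3 and 56.1 CPM in WT mice and 57.0, 60.6 and 66.8 CPM in *Sirt7* KO mice, which overlapped. Its log2 fold change of 0.07 (95% confidence interval -0.23 to 0.38, edgeR adjusted p = 0.89) leaves room for a change in either direction, and it turned to -0.04 when counts were scaled by total reads alone and was 0.11 without WT liver 1.

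Glutathione synthesis starts with glutamate cysteine ligase, and both of its subunits were among the 10. *Gclc*, the catalytic subunit (chromosome 9, 77754535 to 77794485, plus strand), was at 307, 266 and 236 CPM in WT mice and 251, 160 and 194 CPM in *Sirt7* KO mice. In CPM *Sirt7* KO liver 1 lay within the WT range and the other two below it. In TPM, WT mice had 88.3, 68.6 and 64.0 and *Sirt7* KO mice 62.1, 44.1 and 52.9, without overlap but with the highest *Sirt7* KO liver close to the lowest WT liver (difference of log2(TPM + 0.5) -0.47, exact permutation p = 0.1, two-sided, the smallest possible). The share of all genes without overlap in TPM was not counted. A single transcript took 98.7 to 99.9% of *Gclc* reads in each liver, so its length hardly differed between livers. With length offsets the log2 fold change was -0.40 (SE 0.19, edgeR adjusted p = 0.52). Without offsets the log2 fold change was -0.42 (SE 0.19, 95% confidence interval -0.86 to 0.02, unadjusted p = 0.0586, edgeR adjusted p = 0.46). It was -0.61 without *Sirt7* KO liver 1 (edgeR adjusted p = 0.12), -0.28 without *Sirt7* KO liver 2 (edgeR adjusted p = 0.83) and -0.32 without WT liver 1 (edgeR adjusted p = 0.73). *Gclm*, the modifier subunit (chromosome 3, 122245557 to 122270732, plus strand), was at 261, 231 and 231 CPM in WT mice and 229, 230 and 265 CPM in *Sirt7* KO mice. The means were equal at 241 CPM, and the 95% confidence interval of the log2 fold change, -0.32 to 0.32, bounds a change in either direction (edgeR adjusted p = 1, and 0.06 on the log2 scale without WT liver 1). Of the 31-base words in *Gclm* transcripts, 5.61% also occur in other genes, most of them in *Ppia*.

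The thiol enzymes overlapped between genotypes. *Txnrd1* encodes the cytosolic thioredoxin reductase (chromosome 10, 82833951 to 82897712, plus strand) and was at 88.1, 75.6 and 77.7 CPM in WT mice and 85.0, 83.4 and 75.4 CPM in *Sirt7* KO mice. A log2 fold change of 0.01 was found (95% confidence interval -0.29 to 0.32, edgeR adjusted p = 0.98), scaling by total reads turned it to -0.10, and it was 0.08 without WT liver 1. *Srxn1* encodes sulfiredoxin, which repairs over-oxidized peroxiredoxins (chromosome 2, 152105516 to 152111376, plus strand). It was at 39.3, 53.7 and 40.5 CPM in WT mice and 45.0, 45.1 and 27.6 CPM in *Sirt7* KO mice, where liver 3 was the lowest of all. This gave a log2 fold change of -0.18 (95% confidence interval -0.68 to 0.31, edgeR adjusted p = 0.81), which became 0.02 without *Sirt7* KO liver 3 and -0.27 without WT liver 1.

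*Hmox1* encodes heme oxygenase 1, which opens the heme ring (chromosome 8, 75093621 to 75100589, plus strand). It was at 9.40, 10.8 and 12.9 CPM in WT mice and 17.5, 11.3 and 9.15 CPM in *Sirt7* KO mice. *Sirt7* KO liver 1 was the highest of the 6 and *Sirt7* KO liver 3 the lowest. The log2 fold change of 0.20 (95% confidence interval -0.41 to 0.80, edgeR adjusted p = 0.83) turned to -0.11 without *Sirt7* KO liver 1 and was 0.09 without WT liver 1. Macrophages of the liver also express *Hmox1* strongly, and the summed level of 8 Kupffer cell markers was 54.3, 57.4 and 160 CPM in WT mice and 140, 50 and 96.5 CPM in *Sirt7* KO mice, with none at 0 and 0 of 8 at an unadjusted p under 0.05 in edgeR. The part of these cells in the *Hmox1* values was not tested.

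The glutathione S-transferases were the most abundant of the 10. *Gsta3*, an alpha-class enzyme (chromosome 1, 21240589 to 21265661, plus strand), was at 682, 850 and 747 CPM in WT mice and 579, 1456 and 1054 CPM in *Sirt7* KO mice. *Sirt7* KO liver 1 was the lowest of the 6 livers while *Sirt7* KO livers 2 and 3 were the highest. The log2 fold change was 0.44 (SE 0.29, 95% confidence interval -0.23 to 1.10, edgeR adjusted p = 0.63), 0.36 without WT liver 1, 0.73 without *Sirt7* KO liver 1 (edgeR adjusted p = 0.095), and 0.11 without *Sirt7* KO liver 2 (edgeR adjusted p = 0.97). *Gstm1*, a mu-class enzyme (chromosome 3, 108012255 to 108017973, minus strand), was at 3055, 4222 and 4143 CPM in WT mice and 2099, 3884 and 3132 CPM in *Sirt7* KO mice. Liver 1 was the lowest in each genotype. Between genotypes the log2 fold change was -0.33 (95% confidence interval -0.89 to 0.24, edgeR adjusted p = 0.68), -0.47 without WT liver 1 (edgeR adjusted p = 0.66), -0.12 without *Sirt7* KO liver 1 and -0.54 without *Sirt7* KO liver 2. Of the 31-base words in *Gstm1* transcripts 28.8% occur in other genes too, 22.6% in the pseudogene *Gstm2-ps1*, so reads can be split between them. Adding the counts of that pseudogene left the log2 fold change at -0.33, which does not address reads split with other genes.

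Shares of reads on single transcripts could be compared for 9 of the 10 genes. There were 36 such transcripts, and with 3 against 3 the exact permutation p cannot go below 0.1, so no share could pass 0.05 and the comparison is a description. That lowest value was reached by *Txnrd1-206*, *Txnrd1-204* and *Gsta3-203* (exact permutation p = 0.1, adjusted p = 0.98 over the 36 transcripts, for each). For *Txnrd1-206*, WT livers 1, 2 and 3 had shares of 16.9, 2.15 and 5.33% of *Txnrd1* reads (mean 8.11 ± 7.74%). Those of the *Sirt7* KO livers were 0, 2.06 and 0% (mean 0.685 ± 1.19%). The WT mean thus rested largely on liver 1, and the livers numbered 2 hardly differed. *Txnrd1-204* had 0 to 8.37 reads per liver. *Gsta3-203* had a mean share of 3.80 ± 0.363% of *Gsta3* reads for WT and 2.86 ± 0.509% for *Sirt7* KO. These transcripts were singled out after their values were seen.

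The rest of the pathway was read from 9 lists of 133 genes, of which 125 were tested. Of these 125, 16 were lower and 15 higher in *Sirt7* KO mice at an unadjusted p under 0.05, together 24.8%, against 11.3% of all genes (6.54% higher and 4.78% lower). The lists were chosen with earlier results of these data known, which can raise this share, so it is a description only. None passed an adjusted p of 0.05 in edgeR, where the lowest was 0.17, and the median log2 fold change was -0.01. DESeq2 called 5 of them without length offsets (*Gstt2*, *Aldh1l1*, *Ephx1*, *Aldh3a2* and *Slc6a9*) and 2 with them (*Ephx1* and *Aldh3a2*). The count of higher genes hung on single livers: it was 32 without *Sirt7* KO liver 1, 4 without *Sirt7* KO liver 3 and 9 without WT liver 1, while the count of lower genes stayed between 12 and 17. Without WT liver 1, 8 of the 15 higher genes no longer reached that level (*Syvn1*, *Cth*, *Gpx3*, *Gstm6*, *Gstm7*, *Pgd*, *H6pd* and *Mthfd1*), nor did 4 of the 16 lower genes (*Bach1*, *Txnrd2*, *Cbr1* and *Slc40a1*). With fewer livers the count over all genes fell too, from 1418 to 1191, so such a loss need not mean a smaller difference. Values in parentheses below are log2 fold changes with adjusted p, both from edgeR, and higher and lower are used of genes at an unadjusted p under 0.05.

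**Figure D4:**
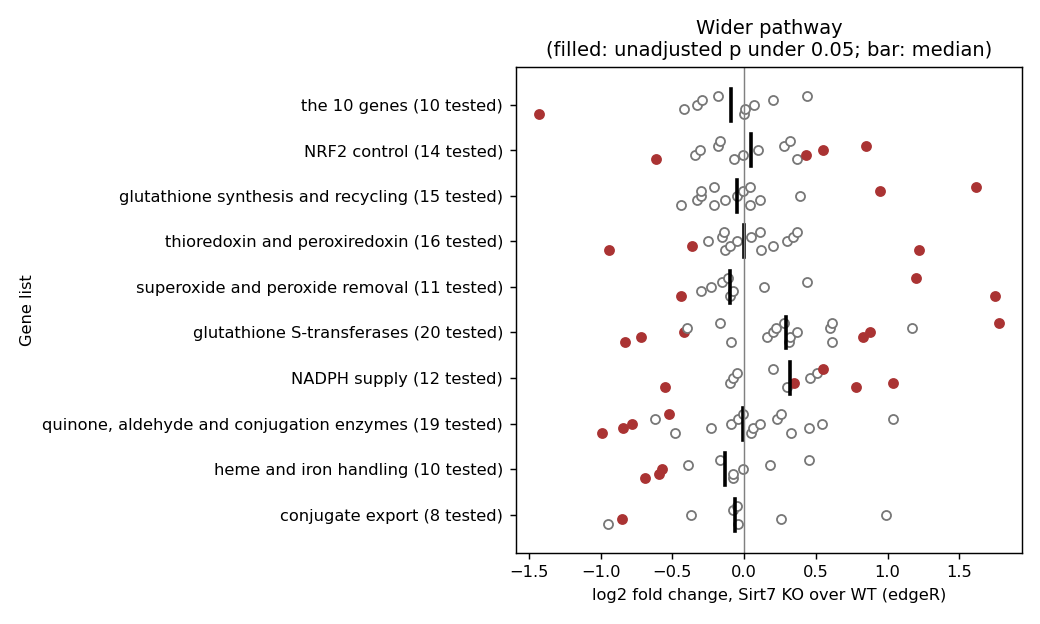
Log2 fold change, *Sirt7* KO over WT, of each tested gene in the 10 genes and in the 9 wider lists, with filled points for an unadjusted p under 0.05 in edgeR and a bar at each list's median. Filled points lie on both sides of 0 in 5 of the 9 lists, to the left only in the lists for quinones and aldehydes, heme and iron, and conjugate export, and the medians run from -0.13 to 0.32.

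The enzymes that work beside NQO1 on quinones, aldehydes and epoxides held 4 lower and 0 higher genes among 19. *Ephx1* encodes microsomal epoxide hydrolase and was at 462, 737 and 553 CPM in WT mice and 348, 293 and 339 CPM in *Sirt7* KO mice, without overlap (-0.84, SE 0.19, adjusted p = 0.17, edgeR, and -0.99 without WT liver 1). *Aldh3a2*, a dehydrogenase of long-chain fatty aldehydes, was at 261, 463 and 273 CPM in WT mice and 214, 141 and 147 CPM in *Sirt7* KO mice, again without overlap (-0.99, SE 0.26, adjusted p = 0.21, edgeR, and -1.15 without WT liver 1). DESeq2 gave adjusted p-values of 0.0034 and 0.0053 for these genes, and 0.025 and 0.039 with length offsets. In the other direction *Ptgr1* (1.04, adjusted p = 0.45) and *Aox3* (0.54, adjusted p = 0.49) did not reach an unadjusted p of 0.05 in edgeR, nor did 15 of the 19 in all.

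Heme and iron genes held 3 lower and 0 higher among 10. *Blvrb*, a biliverdin reductase, was at 219, 319 and 256 CPM in WT mice and 170, 179 and 184 CPM in *Sirt7* KO mice (-0.57, adjusted p = 0.24, edgeR). *Slc48a1*, a heme transporter, was at 79.8, 86.6 and 61.3 CPM in WT mice and 50.9, 51.2 and 49.5 CPM in *Sirt7* KO mice (-0.59, adjusted p = 0.22, edgeR). Both were free of overlap and lower under each other scaling and with each liver left out. *Hpx*, the heme-binding plasma protein, was at 0.45 (adjusted p = 0.46) and *Blvra* at 0.18 (adjusted p = 0.82, edgeR). Red cells are rich in heme genes. Here 6 erythroid markers summed to 374 to 547 CPM in WT mice and 446 to 915 CPM in *Sirt7* KO mice, with 1 of 5 tested at an unadjusted p under 0.05, and their part was not tested.

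The glutathione S-transferases other than the pair above held 3 higher and 3 lower among 20. *Gstt2*, a theta-class enzyme, was at 209, 336 and 310 CPM in WT mice and 148, 175 and 158 CPM in *Sirt7* KO mice (-0.83, SE 0.19, adjusted p = 0.17, edgeR). *Mgst3*, a membrane-bound relative, was at 31.2, 39.7 and 41.9 CPM in WT mice and 17.6, 26.8 and 24.1 CPM in *Sirt7* KO mice (-0.72, adjusted p = 0.22, edgeR). In neither gene did the genotypes overlap. *Gstm6*, at 102, 131 and 92.8 CPM in WT mice and 101, 286 and 211 CPM in *Sirt7* KO mice, was higher (0.88, adjusted p = 0.36, edgeR) but overlapped, and without WT liver 1 (0.83) it no longer passed an unadjusted p of 0.05. *Gstp2* was at 17.8, 129 and 91.2 CPM in WT mice and 127, 302 and 389 CPM in *Sirt7* KO mice (1.78, adjusted p = 0.34, edgeR), with WT liver 1 the lowest, and was at 1.30 without that liver. The mu and pi classes hold close copies, so counts can be split between their genes.

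Among genes that control NRF2, 3 were higher and 1 lower of 14. *Mafk*, a small MAF partner of NRF2, was at 8.64, 7.44 and 10.6 CPM in WT mice and 12.6, 20.1 and 15.3 CPM in *Sirt7* KO mice (0.85, SE 0.24, adjusted p = 0.22, edgeR). *Bach1*, a repressor that competes for the same element, was at 7.62, 6.44 and 6.81 CPM in WT mice and 5.68, 4.03 and 3.95 CPM in *Sirt7* KO mice (-0.61, adjusted p = 0.42, edgeR). In neither gene did the genotypes overlap, and *Bach1* was at -0.54 without WT liver 1. Another small MAF, *Mafg*, chosen after its values were seen, was at 84.9, 109 and 82.3 CPM in WT mice and 53.0, 84.8 and 80.5 CPM in *Sirt7* KO mice, which overlapped (-0.34, adjusted p = 0.59, edgeR). A further one, *Maff*, had 14, 4 and 28 reads in WT mice and 4, 1 and 3 reads in *Sirt7* KO mice and was too low to be tested. *Dpp3*, a peptidase that binds KEAP1, was higher (0.55, adjusted p = 0.21), and *Gsk3b*, a kinase that marks NRF2 for breakdown, was at -0.31 (adjusted p = 0.54, edgeR).

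Glutathione synthesis and recycling held 2 higher and 0 lower among 15. *Chac1*, which degrades glutathione, was at 1.69, 0.544 and 3.11 CPM in WT mice and 3.57, 5.30 and 7.80 CPM in *Sirt7* KO mice (1.62, SE 0.56, adjusted p = 0.33, edgeR), on 6 to 81 reads per liver. *Cth*, which makes cysteine from cystathionine, was at 367, 406 and 327 CPM in WT mice and 285, 1109 and 734 CPM in *Sirt7* KO mice (0.95, adjusted p = 0.41, edgeR), so that *Sirt7* KO liver 1 was the lowest of all. It was at 0.48 without *Sirt7* KO liver 2, 1.33 without *Sirt7* KO liver 1 and 0.95 without WT liver 1. *Gss*, glutathione synthetase, was at -0.30 (adjusted p = 0.5), and *Oplah*, of 5-oxoproline recycling, at -0.44 (adjusted p = 0.49, edgeR).

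NADPH supply, on which NQO1 and the reductases depend, held 4 higher and 1 lower among 12, with a median of 0.32. *Aldh1l1*, a folate enzyme that makes NADPH, was at 686, 706 and 938 CPM in WT mice and 802, 2224 and 1776 CPM in *Sirt7* KO mice (1.04, SE 0.33, adjusted p = 0.29, edgeR). *Pgd*, of the pentose phosphate pathway, was higher (0.78, adjusted p = 0.34) and *Me1*, the cytosolic malic enzyme and a known NRF2 target, was lower (-0.55, adjusted p = 0.35, edgeR). *Sirt7* KO liver 1 lay within the WT range for *Aldh1l1* and *Pgd*, and *Pgd* was at 0.61 without WT liver 1 and 0.52 without *Sirt7* KO liver 2. *Pgls* was at -0.08 (adjusted p = 0.9, edgeR).

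Thioredoxin and peroxiredoxin genes held 1 higher and 2 lower among 16, and genes for superoxide and peroxide removal held 2 higher and 1 lower among 11. *Txnip*, which binds and inhibits thioredoxin, was at 35.5, 64.4 and 70.0 CPM in WT mice and 48.1, 18.2 and 22.3 CPM in *Sirt7* KO mice (-0.94, adjusted p = 0.39, edgeR, and -1.48 without *Sirt7* KO liver 1). In the same list *Txnrd2*, the mitochondrial thioredoxin reductase, was lower without overlap (-0.36, adjusted p = 0.42, edgeR). *Sesn3*, a stress-induced sestrin, was higher on 23 to 87 reads per liver (1.22, adjusted p = 0.27, edgeR), and *Prdx5* was at 0.30 (adjusted p = 0.53, edgeR). *Gpx7* was higher on 6 to 27 reads (1.75, adjusted p = 0.25, edgeR). *Gpx3*, the plasma glutathione peroxidase, was at 7.71, 8.71 and 13.5 CPM in WT mice and 15.8, 10.9 and 42.1 CPM in *Sirt7* KO mice (1.2, adjusted p = 0.37, edgeR). Its genotypes overlapped and *Sirt7* KO liver 3 stood far above the rest, with 0.42 without that liver and 1.04 without WT liver 1. *Aifm2*, a quinone reductase that guards against lipid peroxidation, was at 52.7, 63.0 and 63.4 CPM in WT mice and 44.6, 46.3 and 40.9 CPM in *Sirt7* KO mice (-0.44, adjusted p = 0.29, edgeR). *Selenop*, the selenium carrier of plasma, was at -0.30 (adjusted p = 0.56, edgeR).

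Exporters of conjugates, listed with transporters of glycine and zinc, held 0 higher and 1 lower among 8. That gene was *Slc6a9*, a glycine transporter, at 35.7, 35.8 and 37.5 CPM in WT mice and 26.1, 16.0 and 18.5 CPM in *Sirt7* KO mice (-0.85, SE 0.19, adjusted p = 0.17, edgeR). *Abcc4*, an efflux pump for conjugates, was at -0.95 (adjusted p = 0.46) on 8 to 23 reads, *Abcc1* at 0.26, and *Slc39a4*, a zinc importer, at 0.99 (adjusted p = 0.47, edgeR). The antioxidant response core was found in the promoter windows of 3 of 13 lower genes (23.1%; *Me1*, *Pir* and *Slc6a9*), 3 of 14 higher genes (21.4%; *Gstm7*, *Mafk* and *Pgd*) and 14 of 78 genes past neither level (17.9%), against 14% of all genes with an entry.

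**Figure D5:**
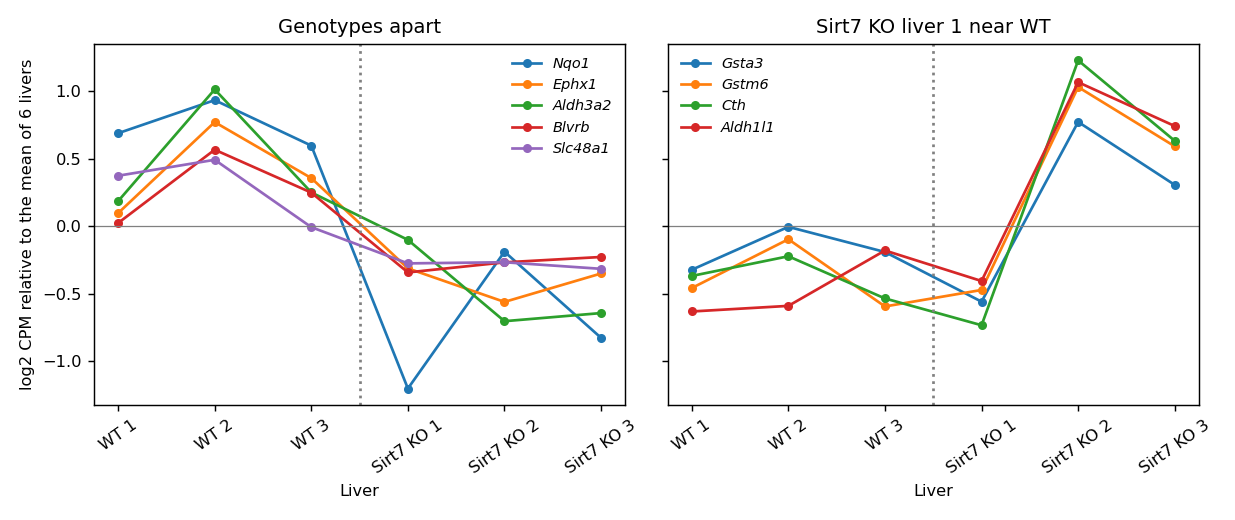
Level of 9 genes in each liver as log2 CPM relative to the mean of the 6 livers, for genes whose genotypes lie apart (left) and genes in which *Sirt7* KO liver 1 lies at or near the WT level (right), both chosen after their values were seen. On the left every *Sirt7* KO liver lies below every WT liver, and on the right *Sirt7* KO livers 2 and 3 lie above the other 4.

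The genes whose levels followed *Nqo1* most closely over the 6 livers, among 6670 with a mean of at least 10 CPM, were *Chmp3* (Pearson r 0.988), *Parp6* (0.983), *Arl6ip4* (0.982), *Cct4* (0.981) and *Gkap1* (0.981). None of the 5 is in the pathway lists. They were picked as the highest of 6670 correlations over only 6 livers, so a high r and a like order of livers follow from the choice. The 5 genes share the 6 libraries with *Nqo1* and the order of *Sirt7* KO livers, with liver 2 the highest and liver 1 the lowest, but not the size of the difference. *Gkap1*, the largest of the 5, was at 14.5, 13.8 and 14.0 CPM in WT mice and 8.97, 11.6 and 9.44 CPM in *Sirt7* KO mice (log2 fold change -0.50, edgeR adjusted p = 0.36), against -1.43 for *Nqo1*.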

How the data were processed

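Liver RNA of 3 WT and 3 *Sirt7* KO mice was reverse transcribed with SMART-seq HT and made into Nextera XT libraries, which do not mark strand. No molecular identifiers are stated, so precision read from depth is that of counting alone. The authors trimmed reads with Trim Galore (0.6.5) and quantified transcripts of GRCm38 with Salmon (1.2.1), as given in the submitters' processing notes. They deposited estimated counts per transcript, which are not normalized and need not be whole, and TPM, which the authors' Salmon run scaled to transcript length and to the total per mouse. The annotation release is not given in the sources used here. Effective lengths in the deposited tables were used only for average length offsets.

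Estimated counts and TPM were summed over transcripts to 54115 genes of GENCODE M21. Of 140992 transcripts, 139172 matched with the same version and 619 with another, and 1201 without a gene (0.303 to 0.492% of reads) were left out. Counts were rounded, scaled by TMM, filtered by filterByExpr (minimum count 10), which left 12524 genes, and tested with edgeR 4.0.16 (R 4.3.3, quasi-likelihood) with Benjamini-Hochberg adjustment over all of them. Genes past 0.05 after adjustment that differed by over 1.5 times were called. DESeq2 1.42.0, other normalizations (RLE, upper quartile, total counts), no filter or a mean of at least 50 counts, length offsets, the replicate number as a block, and leaving out each liver were alternatives. TPM was tested on log2(TPM + 0.5) by exact permutation. The edgeR and DESeq2 steps were tested on simulated data. Shared 31-base words and promoter letters were found with Python 3.11.15. Livers of a genotype differed by more than sampling noise (chi-square per gene at least 16.9).

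The genes, the wider lists and the tests were chosen with earlier results of these data known. From each wider list the 2 genes with the smallest unadjusted p in each direction were named, and genes named beyond this rule were chosen after their values were seen. The 5 genes most like *Nqo1* were ranked by Pearson r of log2(CPM + 0.5).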

Additional observations from a re-analysis of the deposited data

How the results depend on the processing

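Of 484 values recomputed under the alternatives, 413 were labelled as unchanged. For counts of genes this label allowed shifts such as 1418 to 994. It also took in alternatives that could hardly alter most values, such as other pseudocounts for TPM. *Nqo1* was below 0 in all 16 of its alternatives (log2 fold change -1.75 to -1.22). Its adjusted p ran from 1.1e-05 to 0.36 and was under 0.05 in 3 of them, without a filter and in both forms of DESeq2. The number of genes called in all, 1, became 2 with total counts, 2 with length offsets in edgeR, 257 and 240 in DESeq2 without and with length offsets, 633 without a filter, and 0 to 252 with each liver left out, 252 being without *Sirt7* KO liver 1. Genes at an unadjusted p under 0.05, 1418, became 2362 without a filter and 994 to 2208 with a liver left out. Of the 10 genes, 1 was past an unadjusted p of 0.05; this became 3 (3 lower) with total counts, 3 (2 lower) without a filter, 2 (2 lower) in DESeq2 without length offsets, and 1 to 3 (1 to 2 lower) with a liver left out, and 1 was called without a filter and in each form of DESeq2. In the wider lists total counts gave 26 lower genes and the lack of a filter 27 higher ones, and leaving out a liver gave 4 to 32 higher ones. Scaling by total counts moved the median of all genes to -0.11, and there *Gclm* was -0.11, *Txnrd1* -0.10 and *Keap1* -0.04. *Gclm* was also -0.01 with upper quartile scaling, -0.0032 with a mean of at least 50 counts, -0.01 with length offsets in edgeR, and -0.07 to 0.06 with a liver left out. *Txnrd1* ranged from -0.03 to 0.08, *Hmox1* from -0.11 to 0.38 and *Srxn1* from -0.29 to 0.02 with a liver left out. *Sirt7* was 0.80 and 0.81 with length offsets in edgeR and DESeq2. The cause of these moves was not tested. Livers with the same number in the 2 genotypes share only a number (correlations of their deviations 0.07, 0.08 and -0.04). With the replicate number as a block, 41 genes were called, 2 of the 10 genes were past an unadjusted p of 0.05 (2 lower), and *Gclm* was -0.00039. Low read counts limit *Nqo1* (43 to 191 reads per liver) and *Hmox1* the most among the 10.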

Other observations

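The mu-class glutathione S-transferases next to *Gstm1* were looked at as a family after their values were seen. *Gstm2*, *Gstm3*, *Gstm4*, *Gstm5*, *Gstm6* and *Gstm7* had log2 fold changes of 0.60, 1.17, 0.32, 0.37, 0.88 and 0.83 in edgeR, each above 0 under the 3 other scalings and with each liver left out, while *Gstm1* was at -0.33. The sizes rested on *Sirt7* KO liver 2, without which *Gstm2*, *Gstm3*, *Gstm4*, *Gstm6* and *Gstm7* were at 0.17, 0.30, 0.04, 0.52 and 0.54, and *Gstm5* was at 0.16 without WT liver 1. At an unadjusted p under 0.05, *Gstm6* (0.0258) and *Gstm7* (0.0259) passed, but neither did without WT liver 1 (0.0688 and 0.0804), and none did after adjustment (edgeR adjusted p at least 0.36). *Gstm3* was at 52.0, 127 and 80.4 CPM in WT mice and 33.2, 373 and 179 CPM in *Sirt7* KO mice, and *Gstm7* at 36.9, 50.8 and 40.4 CPM and 39.6, 103 and 84.8 CPM. *Sirt7* KO liver 1 thus lay below the other *Sirt7* KO livers in both, as it did for *Gsta3*. The difference between *Gstm1* and its relatives was not tested, and these genes are close copies whose reads can be split between them.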
